A study of Rattus norvegicus with 4 samples.

Results

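The genes described here are 50 genes of autophagy and selective autophagy, chosen by name from what is known of the pathway. Their values were not the rule of choice, but earlier results of these data were known when the list was made. Of these, 46 were on the array through at least 1 probe whose RefSeq transcript accession led to the gene, among 16581 genes named in that way. Pik3r4, Atg2b, Atg4b and Vps41 had no such probe and were not analysed here. The 46 genes were measured by 65 probes in 94 spots.

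Total RNA came from NR8383 cells, a macrophage line derived from lung lavage of a normal rat, after 20 passages. The cells had been exposed for 4 h to Printex90, a commercial carbon black, at a dose the labels give as 0.9 cm2/cm2, with the abbreviation ALI, which they do not spell out. A group of 4 biological replicates was measured, each on a 1-colour array. Cells without particles, which the design also names, were not analysed here. The values that follow therefore describe exposed cells and hold no effect of the particles, and they come from a single cell line.

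Autophagy encloses cytoplasm in a double membrane, the autophagosome, and delivers it to the lysosome. A kinase complex around ULK1, held back by mTORC1 when nutrients are plentiful, starts the process, and a lipid kinase complex around VPS34 and Beclin marks the site with PI3P. Enzymes related to ubiquitin ligases then attach proteins of the ATG8 family, LC3 and GABARAP, to the growing membrane. Cargo receptors bind ATG8 proteins and ubiquitinated or damaged material, and SNARE proteins and the HOPS tethering complex fuse the closed autophagosome with the lysosome. Macrophages use parts of this machinery also for engulfed particles and for damaged lysosomes.

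A gene's level is its log2 spot intensity minus the 75th percentile of its array, so that a level of 0 lies at that percentile and 1 unit is a doubling of intensity. Where a gene had several probes, the probe with the highest mean stands for it. A gene is called detected when 1 of its probes, in spots that were kept, carried the scanner software's mark for signals well above background on each of the 4 arrays. Probes differ in affinity, so no gene's level is ranked against another's. Between 8917 and 9985 named genes were well above background on each array, the 75th percentile was an intensity of 83.8 to 127, and no spot was saturated. Of the macrophage markers, 9 of 11 measured were detected, among them Cd68, Csf1r and Lyz2, with Adgre1 on 2 arrays and Marco on 1. Of epithelial markers 1 of 8 was detected, of fibroblast markers 1 of 6, of endothelial markers 3 of 5, of T cell markers 3 of 6, of B cell markers 1 of 3 and of neutrophil markers 2 of 5. The detected ones were Foxj1, Dcn, Vwf, Pecam1, Cdh5, Cd3d, Cd4, Cd28, Pax5, Camp and Lcn2, while Epcam, Cdh1, Sftpc, Col1a1 and Cd3e reached that mark on no array. Over all named genes the share detected was 50.7%, so the endothelial count was not below that background and the T cell count lay near it.

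Nearly the whole measured pathway gave a signal. Detection on all 4 arrays held for 41 of the 46 genes and for 50.7% of all named genes. The 5 others were Ulk2, Atg13 and Tbk1, each well above background on some arrays, and Wipi1 and Fundc1, well above background on none, a state shared by 36.9% of all named genes. All 5 measured genes of the VPS34 complexes were detected, as were all 9 measured conjugation enzymes, all 5 ATG8 genes, all 6 measured fusion genes and both mTORC1 genes. The gaps lay in the initiation complex with 3 of 5 detected, among the PI3P effectors and lipid carriers with 4 of 5, and among the cargo receptors and their kinases with 7 of 9.

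**Figure D1:**
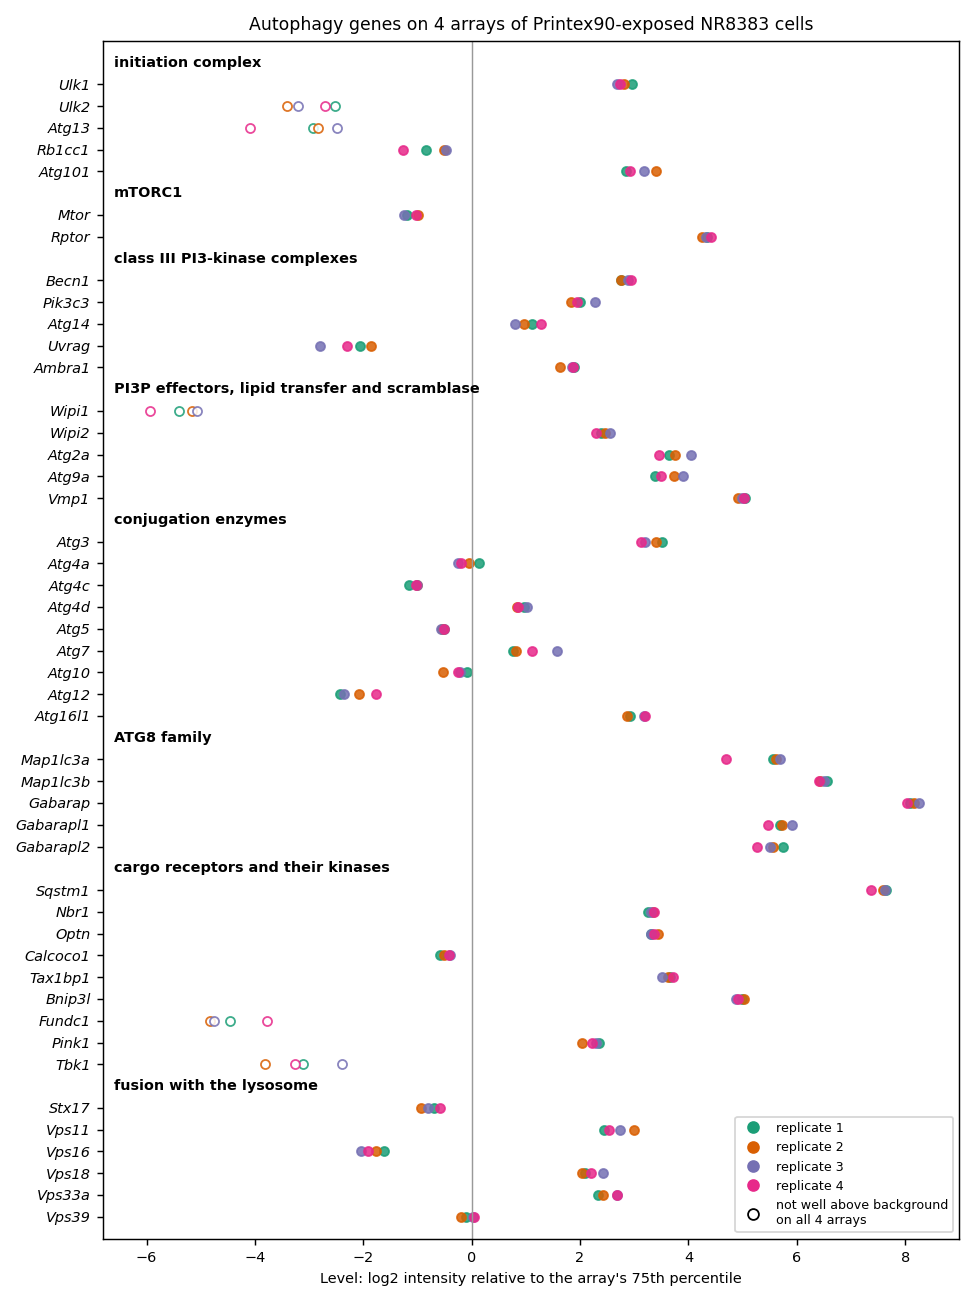
Levels of the 46 measured autophagy genes on the 4 replicate arrays, as log2 intensity relative to each array's 75th percentile, grouped by role. Each point is 1 array, and open points mark the 5 genes that were not well above background on all 4 arrays; for the 41 filled genes the 4 arrays lie within a range of less than 1 log2 unit.

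Spread between the replicates was small. The 41 detected autophagy genes had a median SD of 0.15, or 1.11-fold, beside 0.16 for all 8408 detected genes, and 21 of the 41 lay under the latter. No detected autophagy gene differed by more than 2-fold between its highest and lowest array, which 3.46% of all detected genes did. A range above 1.5-fold was found for 6 of the 41, beside 20.3% of all detected genes. The scanner software's own error for the spots of these genes corresponded to an SD of 0.14 to 0.22 on the log2 scale, and for 22 of the 41 genes the SD between the arrays was smaller than that. That error is a model of the software, and repeated spots varied by less on some arrays, so the comparison does not show that the arrays were alike. The comparison was not made for all detected genes, so its count is not read as particular to the autophagy genes.

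The initiation complex joins a kinase, a scaffold and adaptor proteins. Ulk1, the kinase gene, had levels of 2.96, 2.81, 2.68 and 2.73 on replicates 1 to 4, with a mean of 2.80 ± 0.12 (SD, n = 4). The 4 arrays lay within 1.22-fold of each other, and none stood apart. Rb1cc1 encodes FIP200, the scaffold, and read -0.85, -0.51, -0.48 and -1.27 (mean -0.78 ± 0.37, SD, n = 4). Its lowest value, on replicate 4, was 1.73-fold under its highest, and its SD was above the 90th percentile of all detected genes. The other probe of Rb1cc1 gave -0.45, -0.67, -1.33 and -1.31, so that both probes were low on replicate 4 but differed on replicate 3. With normexp, another background correction that models signal and noise, replicate 3 was the lowest for Rb1cc1. Atg101, an adaptor that steadies ATG13, had a mean of 3.09 ± 0.26 (SD, n = 4), with its highest value of 3.40 on replicate 2.

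Atg13, the adaptor that links the kinase to the scaffold, was well above background on 1 array. Its single probe had processed intensities of 13.0, 11.7, 18.1 and 7.42 on replicates 1 to 4, with software errors of 3.19, 3.08, 3.70 and 3.18. The levels were -2.94, -2.84, -2.48 and -4.10, with an SD of 0.70 between the arrays beside a software error of 0.43 on the same scale. Ulk2, a second gene of the kinase, had 2 probes, and the brighter was well above background on replicates 1 and 4 with intensities of 17.2 and 19.4, against 7.88 and 10.9 on replicates 2 and 3. Its other probe was well above background on no array. With the less strict flag, which asks only for a signal significantly above background, Atg13 and Ulk2 were detected on all 4 arrays.

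Both measured mTORC1 genes, the brake on initiation, were detected with little spread. Mtor, the kinase gene, had levels of -1.19, -0.99, -1.26 and -1.04 (mean -1.12 ± 0.13, SD, n = 4). Rptor encodes Raptor, the subunit that recruits substrates, and gave 4.35, 4.25, 4.33 and 4.41 (mean 4.33 ± 0.07, SD, n = 4). The arrays differed by at most 1.20-fold for Mtor and 1.12-fold for Rptor, and for both genes the SD was smaller than the software's error of a spot.

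The VPS34 complexes make the lipid PI3P. Becn1, which encodes the regulatory subunit Beclin, had levels of 2.76, 2.76, 2.89 and 2.93 (mean 2.84 ± 0.09, SD, n = 4). Pik3c3, the catalytic subunit VPS34 itself, had levels of 2.00, 1.83, 2.27 and 1.94 (mean 2.01 ± 0.19, SD, n = 4). For Becn1 the arrays formed a narrow band of 1.13-fold, and for Pik3c3 they spanned 1.36-fold with replicate 3 highest. Atg14 and Uvrag encode the alternative subunits that direct the kinase to the forming autophagosome and to endosomes. Atg14 had a mean of 1.04 ± 0.21 (SD, n = 4). Uvrag read -2.05, -1.86, -2.80 and -2.30 (mean -2.25 ± 0.40, SD, n = 4). It was lowest on replicate 3, by 1.91-fold against replicate 2, and it was among the 4 detected autophagy genes with an SD above the 90th percentile of all detected genes, which by construction holds for 10% of those. That order rests on the scaling: with the array median subtracted in place of the 75th percentile, or with normexp, replicate 4 was the lowest for Uvrag. The only spot of Uvrag lies in a block of neighbouring spots that was bright on replicate 4, that is, many unrelated spots there read higher than on every other array, and the part of that block in the order was not tested. Ambra1, a scaffold that binds Beclin, gave 1.88, 1.63, 1.86 and 1.87 (mean 1.81 ± 0.12, SD, n = 4), with 3 arrays almost equal and replicate 2 below them.

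PI3P effectors and lipid carriers extend the membrane. Wipi2, which binds PI3P and brings in the conjugation enzymes, had levels of 2.38, 2.45, 2.56 and 2.29 (mean 2.42 ± 0.12, SD, n = 4). Its relative Wipi1 was not well above background, with intensities of 2.34, 2.35, 3.01 and 2.08 that did not exceed their software errors of 2.36, 2.36, 3.03 and 2.08. So these arrays measured no Wipi1 signal beyond its error, while Wipi2 was clear on every one. Atg2a, a lipid transfer protein, had a mean of 3.72 ± 0.25 (SD, n = 4). Atg9a, the lipid scramblase of the vesicles that seed autophagosomes, read 3.39, 3.73, 3.89 and 3.48 (mean 3.63 ± 0.23, SD, n = 4). Its other probe gave 3.10, 3.36, 3.51 and 3.33, and both probes put replicate 3 highest and replicate 1 lowest. Vmp1, a scramblase of the endoplasmic reticulum, had levels of 5.05, 4.92, 4.99 and 5.02 (mean 5.00 ± 0.06, SD, n = 4), an SD lower than that of all but 4.60% of detected genes.

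The conjugation enzymes couple ATG8 proteins to lipid and were detected throughout. Atg7, the activating enzyme, had levels of 0.76, 0.82, 1.57 and 1.12 (mean 1.07 ± 0.37, SD, n = 4). Replicate 3 was 1.76-fold above replicate 1, and the spot of this probe lies in a block that was bright on replicate 3. The part of that block in the result was not tested. Without the blocks that were bright on any array, Atg7 rested on its other probe, made for a predicted transcript, which was well above background on no array and had a mean of -3.93.

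Atg5, whose product forms the ligase together with ATG12 and ATG16L1, had the smallest SD of the autophagy genes. It read -0.50, -0.55, -0.56 and -0.52 (mean -0.53 ± 0.03, SD, n = 4), and 0.476% of all detected genes had a smaller SD. The software's error for its spot was larger, at 0.16, so no special steadiness of Atg5 is read from that rank. Atg12 had a mean of -2.16 ± 0.30 (SD, n = 4), with its highest value of -1.77 on replicate 4. Atg16l1, the subunit that sets the place of conjugation, gave 2.93, 2.86, 3.17 and 3.19 (mean 3.04 ± 0.17, SD, n = 4), with replicates 3 and 4 above the others by less than 1.3-fold.

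Atg3 and Atg10, the conjugating enzymes that act between ATG7 and the ligase, had means of 3.31 ± 0.18 and -0.27 ± 0.19 (SD, n = 4 for both). The call for Atg10 rests on 1 of its 2 probes, since the other was well above background on 2 arrays. The ATG4 proteases trim ATG8 proteins before coupling and free them afterwards. Atg4a had a mean of -0.10 ± 0.17, Atg4c one of -1.05 ± 0.07 and Atg4d one of 0.92 ± 0.09 (SD, n = 4 for all). All 3 were detected, each by its only probe.

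The ATG8 family coats the membrane and holds the cargo receptors. Map1lc3a, which encodes LC3A, had levels of 5.56, 5.62, 5.68 and 4.69 (mean 5.39 ± 0.47, SD, n = 4). Replicates 1 to 3 lay close together while replicate 4 lay 1.99-fold under the highest, the widest range of any detected autophagy gene. Map1lc3b, the LC3B gene whose product is the usual marker of autophagosomes, gave 6.55, 6.43, 6.51 and 6.41 (mean 6.48 ± 0.07, SD, n = 4). All 4 of its probes were detected, and the others had means of 6.24 ± 0.07, 6.10 ± 0.17 and 4.30 ± 0.21 (SD, n = 4 for all).

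Gabarap, the founder of the GABARAP branch, read 8.08, 8.17, 8.25 and 8.04 (mean 8.13 ± 0.09, SD, n = 4). Gabarapl1 had levels of 5.68, 5.73, 5.91 and 5.46 (mean 5.69 ± 0.18, SD, n = 4). Gabarapl2, also known as GATE-16, gave 5.74, 5.56, 5.51 and 5.26 (mean 5.52 ± 0.20, SD, n = 4). The spot of that probe lies in a block that was bright on replicate 3, whose part in the values was not tested. The other probe of Gabarapl2 was also detected and read 3.51, 3.53, 3.66 and 3.50, and without the bright blocks the gene rests on it, with a level of 3.52. In all 5 ATG8 genes replicate 4 was the lowest array, which held for 29.8% of all detected genes, and the median of the 5 lay at -0.23 from the genes' own means there. For Map1lc3b this rests on 6.41 against 6.43 on replicate 2. Of its 4 probes the dimmest was lowest on replicate 1, at 4.00 beside 4.31 on replicate 4, and the others on replicate 4. The place of replicate 4 also rests on the scaling. With quantile normalization, which gives all arrays the same distribution, 1 of the 5 was lowest on replicate 4, and with the 75th percentile of detected probes 3 of the 5 were, beside 18.0% and 20.8% of all detected genes. Map1lc3a alone was lowest on replicate 4 under each of the scalings tried.

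**Figure D2:**
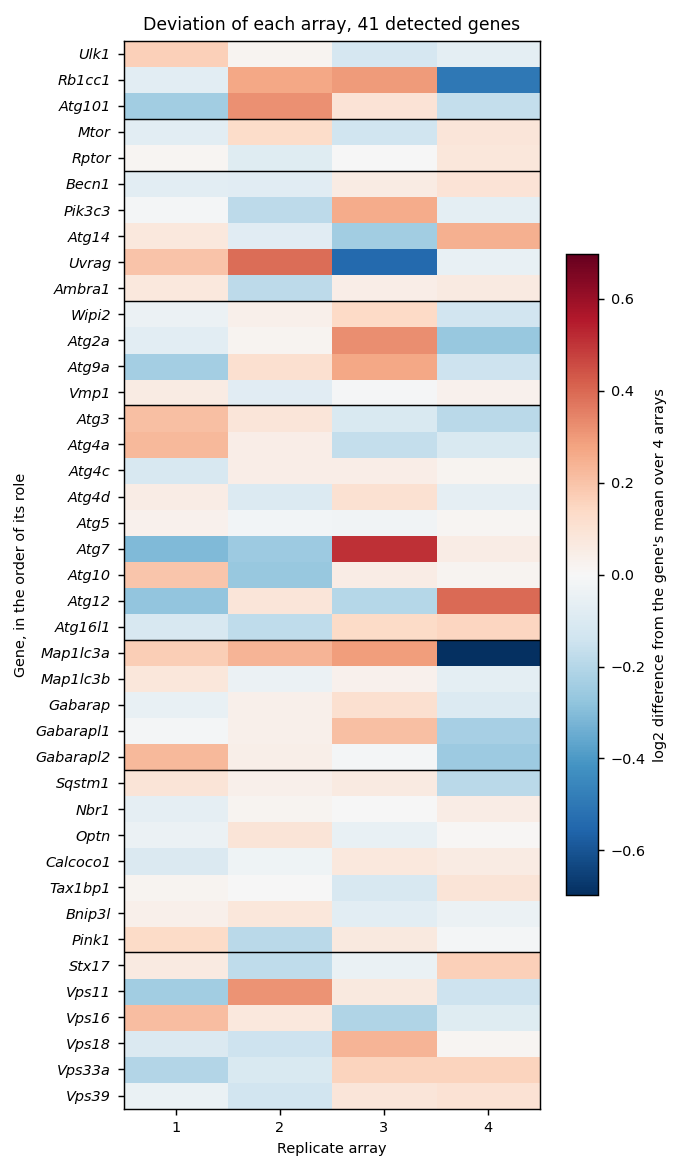
Difference of each replicate array from a gene's mean over the 4 arrays, on the log2 scale, for the 41 detected autophagy genes in the order of their roles, with black lines between roles. The darkest cell is Map1lc3a on replicate 4, followed by Uvrag on replicate 3 and Atg7 on replicate 3; most other cells are pale, with a median SD of 0.15.

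No array stood apart for the pathway as a whole. Among the 41 detected genes, 12, 7, 12 and 10 were highest on replicates 1 to 4, and 9, 12, 10 and 10 were lowest there. Over all detected genes the shares were 31.0%, 17.5%, 31.5% and 20.0% highest, and 20.9%, 26.8%, 22.4% and 29.8% lowest. The median difference from a gene's own mean was -0.01, 0.02, 0.05 and -0.01 on replicates 1 to 4, beside 0.03, -0.02, 0.03 and -0.03 over all detected genes. By role, the largest medians were 0.27 on replicate 2 for the 3 detected genes of the initiation complex and -0.23 on replicate 4 for the ATG8 family. The 7 detected cargo receptors and kinases had the lowest median SD of the 8 roles, 0.08, and their medians per array lay between -0.00427 and 0.02.

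A probe each of Map1lc3b, Gabarapl1 and Vmp1 is printed 10 times on the array, so that variation between spots of an array can be measured. Error that shifts a whole array is not part of that variation. The spots of the repeated probe had an SD of 0.08 to 0.18 within an array for Map1lc3b, 0.07 to 0.14 for Gabarapl1 and 0.09 to 0.25 for Vmp1. Each SD is over the 7 to 10 spots left after outliers were removed. For Map1lc3b the repeated probe is not the one that stands for the gene, whose levels had an SD of 0.07. The means of the arrays had an SD of 0.17 for Map1lc3b and 0.18 for Gabarapl1 and spanned 0.37 and 0.44 log2 units, more than the spot SD of any array. On this scale, for Gabarapl1 the spots of replicate 3 (5.79 to 5.97) did not overlap with those of replicate 4 (5.30 to 5.69). For Vmp1 the means spanned 0.13 log2 units. The standard error of an array's mean, from its spots alone, was at most 0.06 for Map1lc3b, 0.05 for Gabarapl1 and 0.08 for Vmp1. A span over 4 means tends to exceed the error of 1 mean even among equal arrays, so the spans are not judged by it. The spot SD of Vmp1 was largest on replicate 4, at 0.25. Of the 10 spots of Vmp1, 2 lie in a block that was bright on replicate 4, whose part in that SD was not tested. With quantile normalization the span was 0.18 for Map1lc3b, 0.21 for Gabarapl1 and 0.28 for Vmp1, so part of the differences between arrays for these probes depends on how arrays are brought to one scale.

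**Figure D3:**
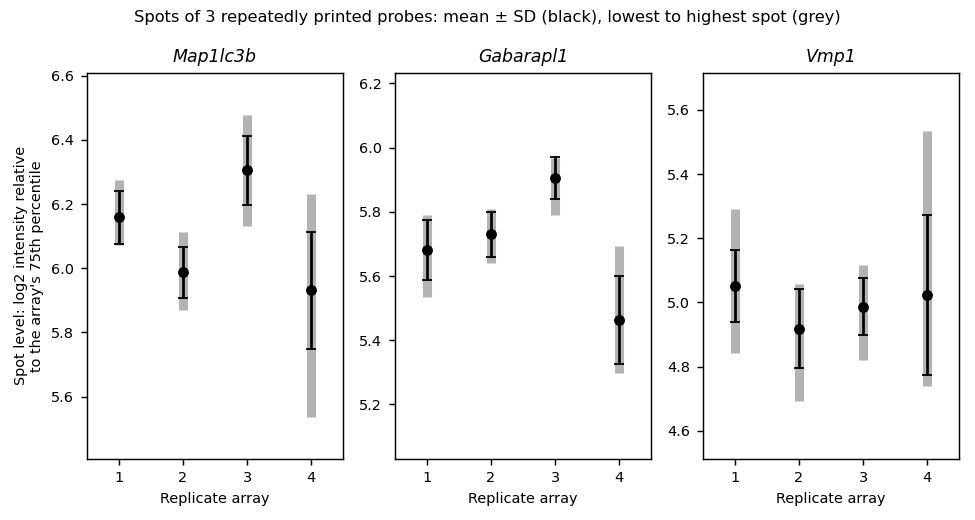
Spot levels of the repeatedly printed probes of Map1lc3b, Gabarapl1 and Vmp1 on each replicate array, as log2 intensity relative to the array's 75th percentile, each panel spanning the same height. Black points and bars are the mean and SD over 7 to 10 spots and grey bars run from the lowest to the highest spot; the widest bar, for Vmp1 on replicate 4, has an SD of 0.25.

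Cargo receptors and the kinases that activate them had, as a role, the smallest median spread over detected genes, with 1 probe standing for each. Fundc1 and Tbk1, which were not detected, are left out of that median. Sqstm1 encodes p62, the receptor for ubiquitinated aggregates, which is itself degraded by autophagy and induced by NRF2. It had levels of 7.65, 7.59, 7.62 and 7.37 (mean 7.56 ± 0.13, SD, n = 4), with replicate 4 lowest by 1.21-fold. Its other probes gave means of 4.95 ± 0.18 and 5.33 ± 0.31 (SD, n = 4 for both), and of these the latter was highest on replicate 3, at 5.78. Nbr1, a related receptor, had a mean of 3.32 ± 0.05 and Tax1bp1, which joins ubiquitinated cargo to the initiation machinery, one of 3.63 ± 0.08 (SD, n = 4 for both).

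Optn, the optineurin gene, whose product binds damaged mitochondria and bacteria, gave 3.31, 3.44, 3.30 and 3.36 (mean 3.35 ± 0.06, SD, n = 4). Its other 2 probes read highest on replicate 2, at 2.20 and 1.54, and the spots of both lie in a block that was bright on that array, whose part in these values was not tested. Calcoco1, a receptor for the endoplasmic reticulum, had a mean of -0.48 ± 0.08 (SD, n = 4). On replicates 1 to 3 a brighter probe of Calcoco1 gave 2.32, 2.40 and 2.58. Replicate 4 has no value for it because the software marked that spot as an outlier, and the dimmer probe stands for the gene.

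Receptors of mitochondria formed a mixed group. Bnip3l, which encodes NIX, a receptor in the outer mitochondrial membrane, had levels of 4.99, 5.03, 4.87 and 4.91 (mean 4.95 ± 0.07, SD, n = 4). Pink1, a kinase that marks damaged mitochondria for removal, gave 2.36, 2.04, 2.29 and 2.21 (mean 2.22 ± 0.14, SD, n = 4). Both were clear on every array. Fundc1, another receptor of the outer membrane, was well above background on no array, with intensities of 4.54, 2.93, 3.74 and 9.20 and errors of 3.19, 2.94, 3.39 and 3.32. Its highest intensity, on replicate 4, is the only one that exceeded its error by more than 2-fold.

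Tbk1, the kinase that phosphorylates optineurin and p62, was well above background on 1 array. Its single probe had intensities of 11.5, 5.95, 19.2 and 13.3 on replicates 1 to 4, with errors of 3.51, 2.97, 3.87 and 3.09. The levels of -3.11, -3.82, -2.39 and -3.25 therefore differ by up to 2.68-fold with a signal near background, and no order of the arrays is read from them. Tbk1 was detected on all 4 arrays with the less strict flag.

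**Figure D4:**
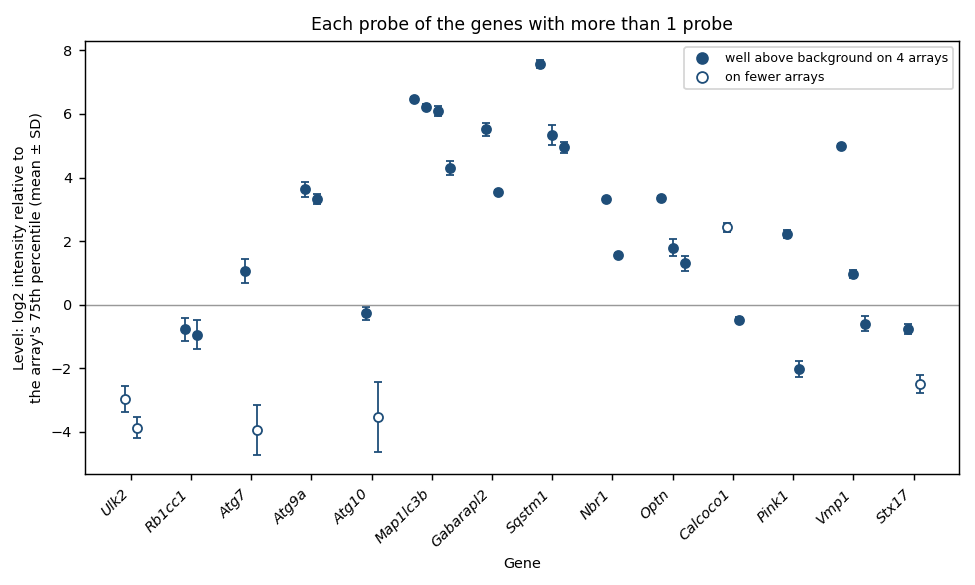
Mean level and SD over the arrays for each probe of the 14 autophagy genes with more than 1 probe, as log2 intensity relative to the array's 75th percentile. Open points mark probes that were well above background on fewer than 4 arrays; the probes of Vmp1, Atg7 and Pink1 lie furthest apart and those of Rb1cc1 and Atg9a closest together.

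Different probes of a gene often gave different levels. Of 13 genes with several probes measured on all arrays, 10 had probes whose means differed by more than 1 log2 unit, with a median gap of 2.05 and a range of 0.16 for Rb1cc1 to 5.59 for Vmp1. For Pink1 the gap was 4.25 and for Sqstm1 2.61, with every probe of both genes detected. All measured probes were detected for 9 of the 13 genes. Such counts were not made for other named genes with several probes, so they are not read as particular to the autophagy genes. For Atg7, Atg10 and Stx17 at least 1 probe was detected and another was not, and for Ulk2 neither was. The spread between arrays differed between probes as well. For Optn the SDs of the 3 probes were 0.06, 0.23 and 0.27, for Sqstm1 they were 0.13, 0.18 and 0.31, and the undetected probe of Atg7 had an SD of 0.79. The dimmer probe of Atg10 ran from -5.05 to -2.55. With the mean of all probes of a gene, the median SD of the autophagy genes was 0.167 and that of all detected genes 0.164, which turns the order of these medians. Both the level and the spread of a gene therefore depend on the probe that stands for it.

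Fusion with the lysosome needs the SNARE protein syntaxin 17 and the HOPS complex. Stx17 had levels of -0.70, -0.94, -0.81 and -0.59 (mean -0.76 ± 0.15, SD, n = 4), from a probe made for a predicted transcript. The other probe of Stx17 was well above background on 2 arrays, with a mean of -2.49. Vps33a, the HOPS subunit that guides SNARE assembly, gave 2.33, 2.43, 2.68 and 2.69 (mean 2.53 ± 0.18, SD, n = 4), with replicates 3 and 4 above replicates 1 and 2.

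The remaining HOPS subunits form the core and the ends that contact membranes. Vps11, Vps16 and Vps18, core subunits shared with the endosomal CORVET complex, had means of 2.67 ± 0.25, -1.84 ± 0.19 and 2.19 ± 0.17 (SD, n = 4 for all). Vps11 was highest on replicate 2, at 2.99, where its spot lies in a block that was bright on that array, whose part in the value was not tested. Vps39, a subunit particular to HOPS, had a mean of -0.06 ± 0.11 (SD, n = 4). All 5 were detected, and Vps11, Vps16, Vps18, Vps33a and Vps39 each rest on a single probe.

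The transcription factors TFEB, TFE3 and MITF bind an element of autophagy and lysosome genes, known as CLEAR, that is built around the E-box CACGTG. The promoter windows of the RefSeq table, from 250 bases before to 50 bases after the gene start on GRCr8, were available for 43 of the 50 genes. These 43 have 44 windows and are counted by gene, while the other shares below count windows. They include genes that were not detected or had no probe. CACGTG, which reads the same on both strands, was found in 8 of the 43 (18.6%), namely Atg3, Atg5, Atg14, Pink1, Tbk1, Vps11, Vps16 and Vps33a. It was found in 6.42% of all 33469 windows and in 9.39% of the 7446 windows of genes detected here. Its extension TCACGTGA, also the same on both strands, stood in 4 of the 43 (9.30%), against 0.777% of all windows and 1.68% of those of detected genes. Of the 4, Vps11, Vps16 and Vps33a encode core subunits of HOPS, and Vps11 and Vps33a hold 2 copies each. The windows of the other listed HOPS genes, Vps18, Vps39 and Vps41, held neither CACGTG nor its extension. The 4 stretches are shown because some members of one complex share the element. TCACGTGA is in capitals, with up to 20 bases on either side, on the strand of the gene.
Vps11: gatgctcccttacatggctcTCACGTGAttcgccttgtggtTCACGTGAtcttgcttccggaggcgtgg
Vps16: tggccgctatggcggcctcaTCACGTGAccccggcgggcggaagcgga
Vps33a: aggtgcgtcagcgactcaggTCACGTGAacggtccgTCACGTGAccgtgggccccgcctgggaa
Atg3: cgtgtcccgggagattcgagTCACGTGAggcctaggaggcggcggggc

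These stretches lie on GRCr8 at chr8:53595355-53595423 on the minus strand for Vps11, at chr3:138075618-138075665 on the plus strand for Vps16, at chr12:38685457-38685520 on the plus strand for Vps33a and at chr11:69159270-69159317 on the minus strand for Atg3. The element begins 26 and 5 bases before the gene start in Vps11, 72 bases before it in Vps16, 47 and 31 bases before it in Vps33a and 17 bases before it in Atg3. A match of letters is a description of the sequence, and binding was not measured. All 4 genes were detected on the 4 arrays, with levels of 3.52, 3.40, 3.20 and 3.12 for Atg3 and of -1.62, -1.76, -2.05 and -1.92 for Vps16. Vps11 had levels of 2.43, 2.99, 2.74 and 2.53. Replicate 1 was thus the highest array for Atg3 and Vps16 and the lowest for Vps11 and Vps33a, and the 4 genes did not share an order of the arrays.

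Most other genes of the pathway were detected too. Of 52 further genes 47 were on the array, and 40 of them were detected, beside 50.7% of all named genes. Their median SD was 0.14, beside 0.16 over all detected genes. Upstream sensing and transcription factors gave 15 of 19. The catalytic AMPK gene Prkaa1, whose product activates ULK1, had a mean of 3.77 ± 0.33 (SD, n = 4), while Prkaa2, which encodes the other catalytic subunit, was well above background on no array. Tsc2, a brake on mTORC1, had a mean of 4.06 ± 0.04 and Rheb, the GTPase that activates mTORC1, one of 3.82 ± 0.06 (SD, n = 4 for both). Akt1s1, which encodes the mTORC1 inhibitor PRAS40, had the largest spread of the detected genes in this list, with levels of -1.08, -0.06, 0.36 and -0.35 (SD 0.61, n = 4).

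The factors that bind CLEAR elements all gave a signal. Mitf had levels of 6.01, 5.98, 5.61 and 5.35 (mean 5.74 ± 0.31, SD, n = 4) and Tfe3 had a mean of 4.59 ± 0.27 (SD, n = 4). Tfeb, with a single spot, was well above background on replicates 1 to 3, and the software marked its spot on replicate 4 as an outlier, so no mean over the 4 arrays is given. Further core genes gave 7 of 8 detected, with Atg9b on 1 array. Further cargo receptors gave 9 of 11, with Tex264, a receptor for the endoplasmic reticulum, at 6.81 ± 0.04 and Ncoa4, the receptor for ferritin, at 5.34 ± 0.13 (SD, n = 4 for both), while Retreg1, also a receptor for the endoplasmic reticulum, was well above background on no array.

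Further fusion genes were detected in 9 of 9 cases. Snap29 and Vamp8, the SNARE partners of syntaxin 17, had means of 5.33 ± 0.05 and 5.97 ± 0.19 (SD, n = 4 for both). Rab7a, the GTPase of late endosomes and lysosomes, had levels of 3.55, 3.02, 3.34 and 2.82 (mean 3.18 ± 0.33, SD, n = 4), with replicates 1 and 3 above replicates 2 and 4. Every measured fusion gene, HOPS subunits included, was therefore detected on all 4 arrays.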

How the data were processed

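The authors deposited spot intensities of 4 Agilent 1-colour arrays, as the processed signal of the scanner software. The submitters' processing notes name Agilent Feature Extraction, version 11.0.1.1. The file headers hold statistics of detrending within an array, and the settings behind them are not given in the sources used here. By their deposited names the arrays share a slide and a scan, so neither can be tested as a batch. Probes were named by matching the unversioned accession to the RefSeq table of GRCr8, which named 21109 of 45598 non-control probes. Per the file headers the grid refers to rn4, another build, so probe coordinates are left out.

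Of 58717 non-control spots, 750 to 1551 per array were dropped because the software marked them as non-uniform or as population outliers. The log2 intensity of a probe is the mean over its remaining spots, less the 75th percentile of all non-control probes on that array. The level of a gene is that of its probe with the highest mean among probes measured on all arrays. With 1 group there was no test between groups, and the number of arrays, 4, limits the precision. P-values are not given. Technical error is the software's error divided by the signal, on the log2 scale.

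Bright blocks of 16 rows and 8 columns held over 10% of unnamed-probe spots at least 1 log2 unit above every other array. The other settings tried were another detection flag, 3 of 4 arrays, every probe of a gene, marked spots kept, bright blocks removed, quantile and other scalings, probes averaged by gene, genes below detection included, and each replicate omitted in turn. Normexp (offset 50) was run on median signals, an alternative chosen after seeing the data, because the mean signals planned for it were not used here.

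Members, roles and gene lists were chosen with earlier results of these data known. Values on each array are given for 24 members fixed by name, and for members with an SD above the 90th percentile, with detection on some arrays only, with an array apart by Dixon's criterion, or with 1 probe detected on all arrays and another on none. Values of Atg3, Vps11, Vps16 and of genes outside the members were added after they were seen. The functions were tested on simulated data. Python 3.11.15 was used with pandas 2.3.3, numpy 2.4.6 and matplotlib 3.10.9; normexp and quantile normalization came from limma 3.58.1 in R 4.3.3.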

Additional observations from a re-analysis of the deposited data

Results flagged for a closer look

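Map1lc3a on replicate 4 had a level of 4.69, apart from the 5.56 to 5.68 of the other arrays by Dixon's criterion for 4 values. It stayed apart when spots marked as outliers were kept and with the 75th percentile of detected probes, and it did not pass the criterion with quantile normalization, where its levels were 5.47, 5.65, 5.58 and 4.84, with the array median or with normexp. Its probe has 1 spot. That spot lies in a block that was bright on replicate 2, not on replicate 4, and the level on replicate 2 lay between those of replicates 1 and 3.

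Ambra1 on replicate 2 had a level of 1.63, apart from the 1.86 to 1.88 of the other arrays by the same criterion. It was lowest on replicate 2 under each of the 5 other scalings and spot filters tried for it, and it passed the criterion under none of them. Chance marks about 1 in 20 genes in this way, and 2 of the 41 detected autophagy genes were marked, beside 5.33% of all 8408 detected genes.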

How the results depend on the processing

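The number of detected autophagy genes was 41 when any replicate was left out, when marked spots were kept and when 3 of 4 arrays were enough. It was 44 with the less strict detection flag, which added Ulk2, Atg13 and Tbk1 and raised the share of all named genes to 61.3%. It was 37 when every probe of a gene had to be detected, beside 45% of all named genes. This removed Atg7, Atg10, Calcoco1 and Stx17. Without the bright blocks it was 36, beside 47.1% of all named genes. Those blocks hold 9.91% of spots and took the spots of Uvrag, Atg3, Map1lc3a and Vps11 and the brighter probe of Atg7. The further pathway genes ranged from 36 to 43 and the cell type markers from 16 to 24. The median SD of the detected autophagy genes ranged from 0.12 to 0.17 over the other alternatives and was 0.38 with the array median, where it was 0.39 over all detected genes. The cause of that rise was not tested. The mean level moved by more than its SD between arrays for 9 of 28 genes with the mean of all probes, for 27 with normexp, for none with quantile normalization or with any replicate left out, for 1 with marked spots kept and for 2 of 26 without the bright blocks. For all 28 it moved with the array median and with the 75th percentile of detected probes, which set another zero. Normexp on mean signals was not run. No paired analysis was possible because there is 1 group. Signals of Wipi1, Fundc1, Tbk1, Atg13 and Ulk2 lie near background, which limits what can be read from their spread.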
